A study of Mus musculus with 25 samples.

Results

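The genes described here encode 10 proteins of arachidonic acid metabolism, namely Alox8, Alox5, Alox5ap, Alox12, Alox15, Ptgs1, Ptgs2, Ptgis, Ptgds and Ptges, among 20870 genes measured by RNA-seq in 25 libraries of laser-captured mouse heart tissue on a mixed strain background. The set was chosen by the measured level of Alox8, which is high in the sinoatrial node (SAN), where the heartbeat starts, and the other genes share its pathway. Alox15 is not analysed here, and the other 9 genes each had a row in the table. The SAN and the adjoining right atrium (RA) were each sampled in 3 libraries before birth on embryonic day 14.5 (E14.5) and after birth on days 4 (P4) and 14 (P14), from mice carrying an Hcn4-GFP reporter and no other listed allele. The remaining 7 libraries held SAN tissue captured on embryonic day 12.5 (E12.5) from embryos that all carried Hcn4-GFP and Isl1 fl/fl and had all received tamoxifen at E10.5. Of these, 4 lacked Cre (CreNeg) and 3 carried CAG-Cre/Esr1 (CrePos), a tamoxifen-activated recombinase under a promoter that is active in most cell types, so deletion was not restricted to pacemaker cells. No label names the animal behind a library, so the spread behind each p-value is one between libraries and may in part be technical.

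Arachidonic acid is released from membranes by phospholipases and then oxidised along separate routes. Lipoxygenases add oxygen at a fixed carbon and give hydroperoxy acids, leukotrienes and lipoxins. Cyclooxygenases make the common prostanoid precursor, from which terminal synthases form prostacyclin, thromboxane and the prostaglandins. In heart tissue these lipids are best known from blood vessels, platelets and leukocytes, where they act on vascular tone, clotting and inflammation.

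Levels are given on a common CPM-like scale, written as CPM. It comes from dividing the deposited values of all libraries by the same constant, so library totals are not fixed. On it 1 read was worth 0.0617 to 0.215 CPM in the 18 SAN and RA libraries, which held 5101711 to 17997497 reads. In the 7 E12.5 libraries, which held 45298052 to 88020474 reads, it was worth 0.00823 to 0.0177 CPM. A count of 0 allows up to 3 reads, a floor for counting error alone, because reads of amplified RNA do not stand for separate molecules. Differences are on the log2(CPM + 1) scale with their standard error (SE), which understates changes of genes near 0, and a gene was called at a limma adjusted p below 0.05 over all genes tested. Hcn4, the pacemaker channel gene, separated the labelled tissues. It lay between 1141 and 3748 CPM in the 9 SAN libraries and at most at 31.1 CPM in the 9 RA libraries. The summed level of 6 atrial myocyte markers was higher in SAN at E14.5 (8491 to 8984 CPM, RA 5580 to 7582) and lower at P14 (6338 to 7435, RA 10268 to 13879). That of 5 ventricular markers was also higher in SAN at E14.5 (2377 to 3998 CPM, RA 1379 to 1798) and lower at P14 (1812 to 2425, RA 3145 to 3494). Both sums overlapped at P4. Single genes did not all follow the sums. Nppa, the gene of atrial natriuretic peptide, was at most at 34.41 CPM in SAN at E14.5 and at least at 320.3 CPM in RA. In SAN E14.5 replicates 2 and 3 the ventricular sum was 2586 and 2377 CPM with little Myl2, as given below. The sums therefore do not compare how many atrial or ventricular myocytes the tissues held. Some libraries stood apart. SAN E14.5 replicate 1 had 828.7 CPM of Myl2, a ventricular myosin gene that reached at most 24.5 CPM in the other 17. RA E14.5 replicate 3 had a summed level of 513.02 CPM over 7 platelet and megakaryocyte markers against at most 33.4 CPM elsewhere among the 18, and SAN P4 replicate 1 had 662.2 CPM over 5 detected mast cell markers against at most 200.4 CPM. In captured tissue, fewer cells of a type and less RNA per cell cannot be told apart.

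Alox8, a lipoxygenase that oxygenates arachidonic acid, was the gene that set the choice of this group, so its levels in SAN against RA are a description without a test. At E14.5 Alox8 stood at 73.5, 82.9 and 122.9 CPM in the 3 SAN libraries and at 0.789, 2.03 and 0.0892 CPM in RA. At P4 the SAN libraries held 335.7, 406.9 and 271.8 CPM and the RA libraries 1.32, 2.30 and 3.01 CPM. At P14 the SAN libraries held 304.1, 80.6 and 276.8 CPM and the RA libraries 4.67, 3.65 and 3.10 CPM. The lowest SAN library lay above the highest RA library at each stage, and SAN P14 replicate 2 was the low one of its group. The SAN mean was 96.2 times the RA mean at E14.5, 152.8 times at P4 and 57.9 times at P14. On the log2 scale the difference was 5.67 ± 0.44 (SE) at E14.5, 6.74 ± 0.44 at P4, 5.32 ± 0.44 at P14 and 5.91 ± 0.26 over the 3 stages, where it ranked 2nd of 17568 genes.

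**Figure D1:**
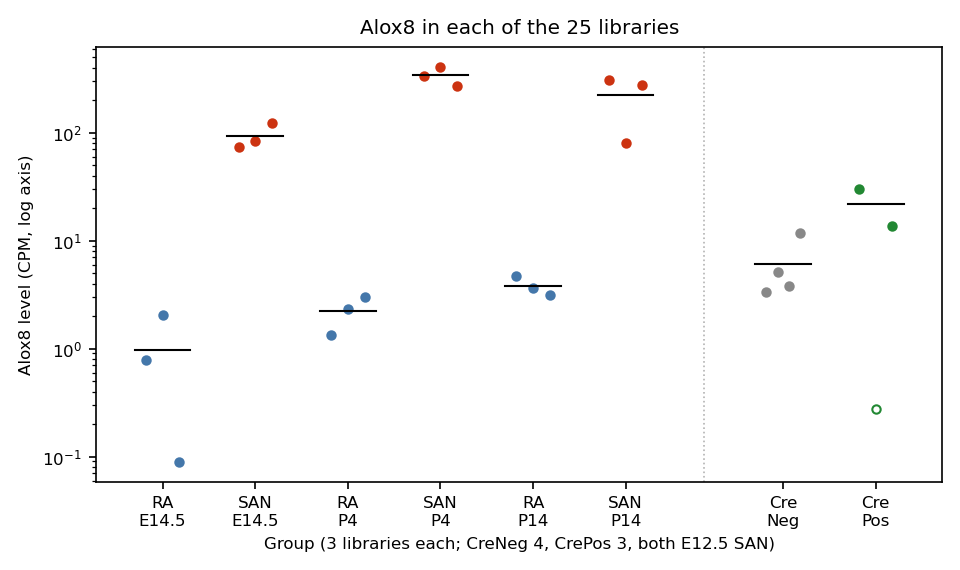
Alox8 level in CPM (log axis) in each of the 25 libraries, by group. Red points are SAN, blue RA, grey CreNeg and green CrePos, black bars are group means, and the open point is CrePos replicate 2, whose title marks it as an outlier and which is left out of its mean. All 9 SAN libraries lie at or above 73.5 CPM and all 9 RA libraries at or below 4.67 CPM; the dotted line separates the E12.5 libraries, which are not compared with the others.

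The order of the Alox8 group means was SAN P4 (338.2 ± 67.6 CPM, SD, n = 3), SAN P14 (220.5 ± 121.9), SAN E14.5 (93.1 ± 26.2), RA P14 (3.81 ± 0.80), RA P4 (2.21 ± 0.85) and RA E14.5 (0.968 ± 0.981). Libraries of SAN P4 and SAN P14, of SAN P14 and SAN E14.5, and of RA P4 and RA E14.5 overlapped. Changes with age within a tissue had no part in the choice and were tested. From E14.5 to P4 Alox8 rose in the SAN by 1.87 ± 0.44 on the log2 scale, with a limma adjusted p of 0.011 and no overlap of the libraries. That call was lost without SAN E14.5 replicate 1 (limma adjusted p = 0.0593), without SAN P4 replicate 2 (0.0589) and without the 3 libraries that stood apart (0.0995), and the adjusted p ranged from 0.000159 to 0.0995 over the alternatives. From E14.5 to P14 the SAN difference of 1.05 ± 0.44 did not pass in limma (adjusted p = 0.0897), and without SAN P14 replicate 2 it was 1.66 with a limma adjusted p of 0.00623. DESeq2 (adjusted p = 0.00345), edgeR (0.0199) and a pseudocount of 4 (limma, 0.0443) also called it, within a range of 0.00345 to 0.342. In the RA, where each library holds a few CPM at most, Alox8 rose from E14.5 to P14 by 1.40 ± 0.44 (limma adjusted p = 0.0263), a call that was lost in 6 of 15 alternatives, among them a pseudocount of 4 (0.206) and leaving out RA E14.5 replicate 3, which holds 1 Alox8 read (0.131). It was also lost without RA E14.5 replicate 1 (0.0622), RA P14 replicate 1 (0.0851), RA P14 replicate 2 (0.0562) or the 3 libraries that stood apart (0.162), within a range of 4.6e-05 to 0.206.

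The genes most like Alox8 over the 18 libraries, by Pearson correlation of log2(CPM + 1) among 11701 genes, were Tbx3 (0.97), a transcription factor of the conduction system, Pde1a (0.96), a cyclic nucleotide phosphodiesterase, Mfsd6 (0.96), Smad9 (0.94), a BMP signal mediator, Hcn4 (0.94) and Cacna1d (0.94), a calcium channel pore of pacemaker cells. All 18 points share the SAN and RA contrast for which Alox8 was picked. The summed level of 6 node myocyte markers was 2672 to 6721 CPM in the SAN libraries and 64.2 to 126.9 CPM in the RA libraries, so it moved with Alox8 between tissues. The sum of 7 measured autonomic neuron markers, some at 0 in single groups, did so too. It was 52.5 to 308.4 CPM in SAN and 9.39 to 33.7 CPM in RA. With age, the node marker sum in the SAN was 4026 to 5588 CPM at E14.5, 4450 to 6721 CPM at P4 and 2672 to 2913 CPM at P14. It overlapped between E14.5 and P4, where Alox8 lay apart. At P14 it lay below E14.5, while the Alox8 libraries of these stages overlapped. The part of node myocytes or neurons in the Alox8 level was not tested.

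Alox8 shares its chromosomal neighbourhood with Gucy2e, a membrane guanylate cyclase known from the retina, which is the next protein-coding gene on the same strand in a later annotation than the one used for counting. Gucy2e was looked at after its values were seen, as a description. It held 23.2, 17.4 and 33.0 CPM in SAN at E14.5, against 0.113, 0 and 0 CPM in RA. At P4 it held 40.5, 42.2 and 15.5 CPM in SAN and 0.203, 0 and 0.431 CPM in RA, and at P14 it held 13.3, 13.2 and 31.9 CPM in SAN and 2.77, 3.39 and 4.13 CPM in RA. Its SAN libraries thus lay above its RA libraries at each stage, with a difference of 3.79 on the log2 scale over the 3 stages. The other neighbours with enough reads differed less, from −0.24 for Cntrob to 0.61 for Chd3, while Hes7 and Aloxe3, a skin lipoxygenase, had group means of at most 1.20 CPM. Both genes lie on the minus strand with Gucy2e upstream, so reads of any transcript that runs on from Gucy2e into Alox8 would count for both genes. The SAN means at E14.5, P4 and P14 were 93.1, 338.2 and 220.5 CPM for Alox8. For Gucy2e they were 24.6, 32.7 and 19.5 CPM. Whether such a transcript was present was not tested.

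The promoters of Alox8 and Gucy2e are shown because these adjoining genes were high in the same libraries, and that of Ptgs2 because its reads in both tissues came almost wholly from P14. They come from RefSeq on GRCm38.p6, which is later than the build of the counts, run from 250 bases before to 50 bases after the start of the gene, and are written 5′ to 3′ on the strand of the gene. RefSeq promoter entries were found for 7 of the 10 genes. Capitals mark matches to any of 5 motifs searched on both strands, none of which overlap: the T-box core GGTGTGA, the homeodomain core TAATTA, the GATA core AGATAA, the cAMP response core CGTCA and the TATA box TATAAA.
Alox8 promoter (chr11:69197794-69198093, minus strand): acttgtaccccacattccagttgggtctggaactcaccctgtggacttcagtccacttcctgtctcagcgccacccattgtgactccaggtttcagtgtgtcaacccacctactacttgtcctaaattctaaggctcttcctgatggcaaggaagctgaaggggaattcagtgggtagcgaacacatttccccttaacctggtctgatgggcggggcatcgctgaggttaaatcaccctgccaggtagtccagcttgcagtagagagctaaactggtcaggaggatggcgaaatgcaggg
Gucy2e promoter (chr11:69236973-69237272, minus strand): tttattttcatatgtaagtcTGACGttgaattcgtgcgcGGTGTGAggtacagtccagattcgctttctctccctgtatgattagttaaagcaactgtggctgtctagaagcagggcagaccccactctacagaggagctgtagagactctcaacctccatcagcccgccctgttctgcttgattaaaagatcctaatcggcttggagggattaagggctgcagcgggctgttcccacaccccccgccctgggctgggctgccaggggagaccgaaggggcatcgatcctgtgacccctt
Ptgs2 promoter (chr1:150099781-150100080, plus strand): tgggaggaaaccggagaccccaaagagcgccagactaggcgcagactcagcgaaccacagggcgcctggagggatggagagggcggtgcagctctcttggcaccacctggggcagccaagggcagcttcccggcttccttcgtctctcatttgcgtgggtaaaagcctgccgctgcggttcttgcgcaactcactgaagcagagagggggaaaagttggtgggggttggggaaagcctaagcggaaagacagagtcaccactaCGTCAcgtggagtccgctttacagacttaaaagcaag
The Alox8 window held none of the 5 motifs. The Gucy2e window held 1 T-box core, at base 40, and 1 cAMP response core on the opposite strand, at base 21, counted from the 5′ end. The Ptgs2 window held 1 cAMP response core, at base 264. Of 32851 promoter windows of the same length, 3.98% held the T-box core, 5.29% the homeodomain core, 11.2% the GATA core, 20.8% the cAMP response core and 13.6% the TATA box.

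Among the other 8 genes measured in SAN and RA, 0 were higher and 1, Ptgs1, was lower in the SAN over the 3 stages, where 11.5% of all genes tested were called (6.11% higher and 5.36% lower). The median difference of these 8 was −0.06 on the log2 scale and that of all genes −0.01. At E14.5 Ptgs1 was again the only one called (5.33% of all genes, 2.24% higher and 3.09% lower). At P4 0 of the 8 were called in limma, where 5.96% of all genes were. Alox5, Ptgs1 and Ptgis had an unadjusted p below 0.05 there, DESeq2 called 1 (Alox5) and edgeR 0. At P14 0 were called in limma (4.55% of all genes), 3 had an unadjusted p below 0.05 (Alox5, Ptgis and Ptgds) and DESeq2 and edgeR called 0.

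**Figure D2:**
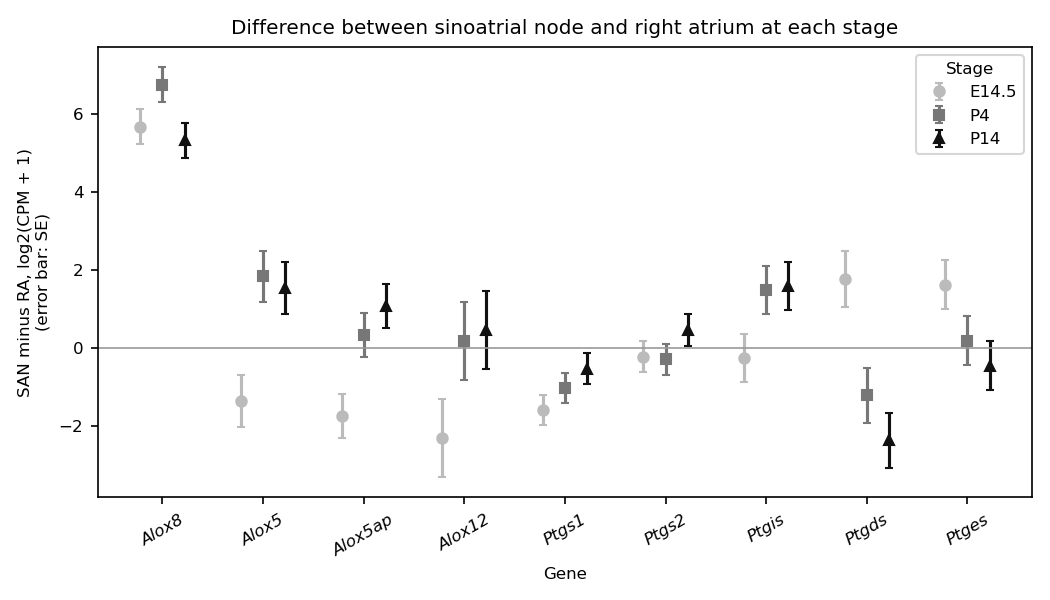
Difference between SAN and RA in log2(CPM + 1) at E14.5 (light circles), P4 (grey squares) and P14 (black triangles) for the 9 genes, with the SE of the fit as error bars and 3 libraries per tissue and stage. Alox8 lies between 5.32 and 6.74 at the 3 stages, and the other genes lie between −2.36 and 1.84.

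Alox5 makes the first steps of leukotriene synthesis, mainly in leukocytes, and Alox5ap is the membrane protein that presents arachidonic acid to it. Both genes had few reads, and both were higher in the SAN at P14 than at E14.5. Alox5 stood at 0.0723, 1.48 and 0.301 CPM in SAN at E14.5 and at 8.51, 2.80 and 4.48 CPM at P14. This rise of 1.95 ± 0.66 on the log2 scale had a limma adjusted p of 0.0352, and the libraries did not overlap. It was lost with edgeR (adjusted p = 0.0825), with a pseudocount of 4 (limma, 0.0613), without SAN E14.5 replicate 1 (0.128) or 3 (0.0935), without SAN P14 replicate 1 (0.137) or 3 (0.0684) and without the 3 libraries that stood apart (0.057), within a range of 0.0265 to 0.137. Alox5ap stood at 0.145, 0.740 and 0 CPM in SAN at E14.5 and at 3.85, 5.06 and 3.76 CPM at P14. Its rise of 2.05 ± 0.56 had a limma adjusted p of 0.0101 and was lost with edgeR (0.0612) and in no other of the 15 alternatives (0.00728 to 0.0612).

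In the RA neither gene was called over the same interval. Alox5 stood at 3.72, 1.29 and 4.36 CPM at E14.5 and at 2.19, 0.0892 and 1.33 CPM at P14. Alox5ap stood at 3.04, 2.58 and 4.097 CPM and at 3.94, 0.0892 and 1.77 CPM at these stages. The difference between the tissues in this change was 2.89 ± 0.94 for Alox5 (limma adjusted p = 0.110) and 2.81 ± 0.79 for Alox5ap (0.0638), so neither passed. With levels set by sarcomere genes both passed in limma (adjusted p = 0.0366 and 0.0181), within ranges of 0.0366 to 0.271 and 0.0181 to 0.314. Alox5ap also passed with a pseudocount of 4 (limma, 0.0473) and without RA P14 replicate 1 (0.0396). At E14.5 all 3 SAN libraries lay below all 3 RA libraries for Alox5ap, a difference of −1.74 ± 0.56 that did not pass (limma adjusted p = 0.0793).

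Leukocyte markers were higher at P14 than at E14.5 in both tissues, while these genes were called higher in the SAN only. The summed level of 15 macrophage and leukocyte markers, all detected in SAN, was 83.5 to 138.9 CPM in SAN at E14.5 and 635.2 to 804.4 CPM at P14, against 106.9 to 231.4 and 269.2 to 354.4 CPM in RA (there with Cd163 at 0 at E14.5). In RA the sum was thus also higher at P14. There the mean of Alox5 was 3.12 CPM at E14.5 and 1.20 CPM at P14, and that of Alox5ap 3.24 and 1.93 CPM. The part of leukocytes in the rise of Alox5 and Alox5ap in the SAN was not tested. At P4 Alox5 was 15.6 CPM in SAN replicate 1 and 0.802 and 2.00 CPM in the others. That library held 662.2 CPM of mast cell markers, against 200.4 and 11.9 CPM in the other SAN P4 libraries, and the markers Cpa3, Mcpt4, Tpsb2 and Cma1 were at 0 in all RA P4 libraries, where Kit alone made up the sum of 91.7 to 120.1 CPM. The difference between SAN and RA at P4 was 1.84 ± 0.66 (limma adjusted p = 0.119) and 0.89 without that library (0.504). DESeq2 (adjusted p = 0.00857) and limma without SAN P4 replicate 2 (0.0406) called it, within a range of 0.00857 to 0.538. By the same measure the nearest genes to Alox5 were P2ry12 (r = 0.79), Ccdc85a (0.77) and Stac (0.76), and for Alox5ap they were Runx1 (0.82), Zswim6 (0.81) and Alox5 itself (0.79).

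Alox12, the platelet-type lipoxygenase, was high in 1 library. It stood at 3.27, 2.95 and 103.5 CPM in RA at E14.5 and at 1.66, 0.123 and 4.01 CPM in SAN. In the later groups it stood at 1.02, 0.419 and 1.08 CPM (RA P4), 0, 1.20 and 3.04 CPM (SAN P4), 1.90, 3.03 and 2.66 CPM (RA P14) and 0, 13.5 and 6.64 CPM (SAN P14). RA E14.5 replicate 3 is the library with 513.02 CPM of platelet and megakaryocyte markers, all 7 of which were detected in its group while Gp6 and Treml1 were at 0 in the other 5 groups of SAN and RA, and the part of these cells in its Alox12 level was not tested. Alox12 correlated best with Gp9 (r = 0.76) and Ppbp (0.76), both platelet genes on the marker list, and Dner (0.74), with that library included in all 3 correlations. Alox12 was not called in any of the 13 comparisons in limma. DESeq2 called it lower at P4 than at E14.5 in RA (adjusted p = 0.0178, range over the alternatives 0.0178 to 0.551), a difference of −2.74 ± 1.00 in limma and −1.18 without RA E14.5 replicate 3. In the E12.5 set Alox12 stood at 6.62, 8.90, 2.23 and 0.740 CPM in CreNeg and at 1.34 and 1.69 CPM in CrePos 1 and 3.

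**Figure D3:**
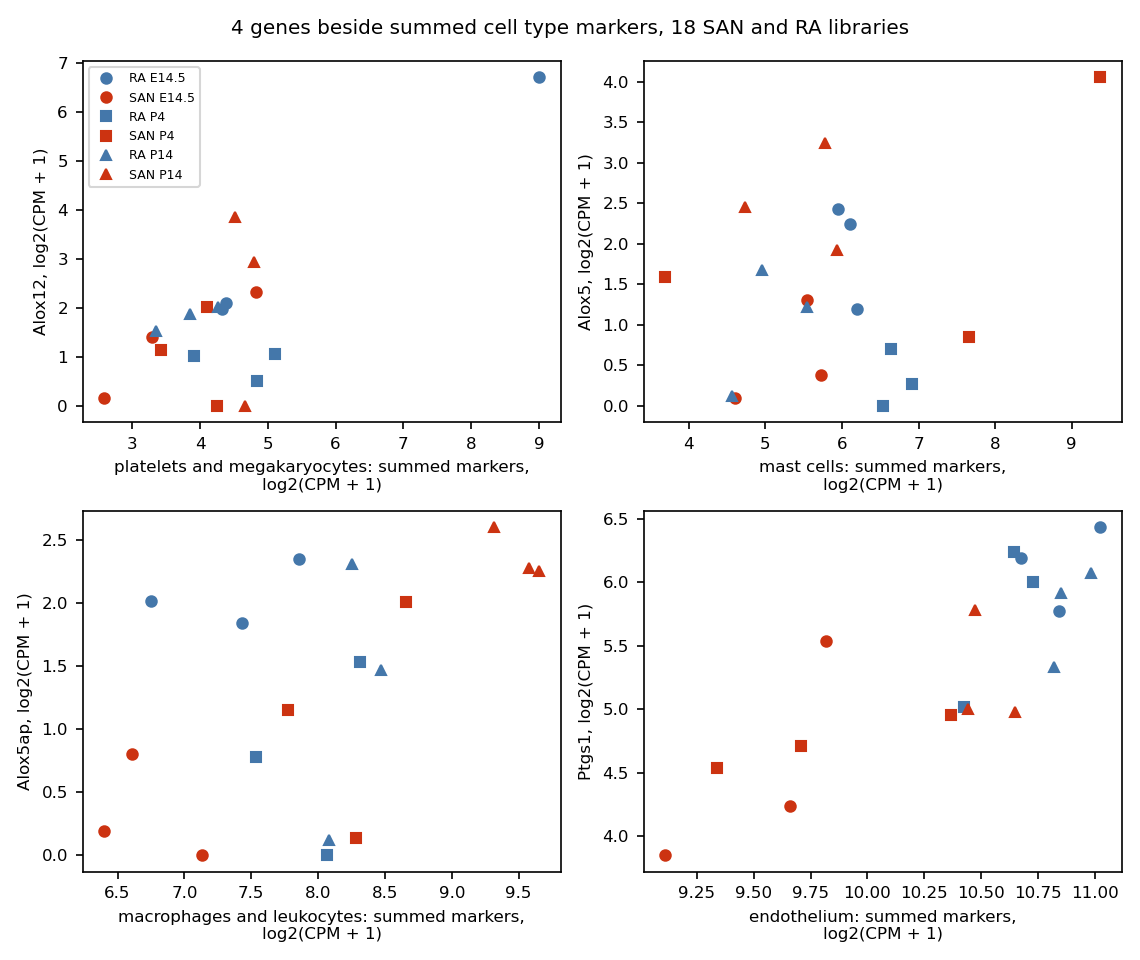
Levels of Alox12, Alox5, Alox5ap and Ptgs1 beside the summed level of a marker list (platelets and megakaryocytes, mast cells, macrophages and leukocytes, endothelium) in the 18 SAN (red) and RA (blue) libraries at E14.5 (circles), P4 (squares) and P14 (triangles), both axes in log2(CPM + 1). One RA E14.5 library is highest in Alox12 (103.5 CPM) and in platelet markers (513.02 CPM), one SAN P4 library is highest in Alox5 (15.6 CPM) and in mast cell markers (662.2 CPM), and one SAN E14.5 library is lowest in Ptgs1 (13.4 CPM) and in endothelial markers (552.4 CPM).

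Ptgs1, the constitutive cyclooxygenase found in platelets, endothelium and many other cells, was lower in the SAN. At E14.5 it stood at 17.9, 13.4 and 45.4 CPM in SAN and at 53.7, 85.5 and 72.1 CPM in RA. At P4 it stood at 22.2, 25.3 and 30.01 CPM in SAN and at 74.6, 63.0 and 31.4 CPM in RA, and at P14 at 30.6, 31.1 and 54.02 CPM in SAN and 59.4, 39.3 and 66.2 CPM in RA. The groups lay apart at E14.5 and P4 and overlapped at P14. Over the 3 stages the difference was −1.04 ± 0.22 on the log2 scale (limma adjusted p = 0.00263), and it was called in all 27 alternatives, at adjusted p-values of 0.000167 to 0.0244. By stage it was −1.59 ± 0.39 at E14.5 (limma adjusted p = 0.0137), −1.02 ± 0.39 at P4 (0.144) and −0.52 ± 0.39 at P14 (0.591). The call at E14.5 was lost with edgeR (adjusted p = 0.0541), without RA replicate 2 (0.0851), without SAN replicate 1 (0.0792), without SAN replicate 2 (0.117) and without the 3 libraries that stood apart (0.162), within a range of 0.00128 to 0.162.

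The narrowing from E14.5 to P14 was itself not called, at a difference between tissues of 1.07 ± 0.55 (limma adjusted p = 0.375). The summed endothelial markers of the tissues also lay closer at P14 than at E14.5. The summed level of 10 such markers, all detected in each group, was 552.4 to 902.5 CPM in SAN and 1635 to 2078 CPM in RA at E14.5, and 1390 to 1602 CPM in SAN and 1808 to 2022 CPM in RA at P14. At P4 the sum was 647.3 to 1319 CPM in SAN and 1373 to 1696 CPM in RA. The sums of the tissues lay apart at each stage, while the Ptgs1 libraries overlapped at P14. The part of endothelial cells in the Ptgs1 difference was not tested. In a later annotation antisense or other transcripts overlap exons of Ptgs1, Alox5ap and Ptgis, and reads without strand cannot tell these apart from the gene. Ptgs1 correlated best with Shank3 (r = 0.87), Pde7b (0.86) and Wipf3 (0.83).

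Ptgs2, the inducible cyclooxygenase, was read almost only at P14, in both tissues. It was at 0 in all 6 SAN libraries of E14.5 and P4 and stood at 4.66, 9.06 and 9.52 CPM in SAN at P14. In RA it stood at 0, 0.553 and 0 CPM at E14.5, at 0.102, 0.629 and 0 CPM at P4 and at 5.11, 3.74 and 6.79 CPM at P14. In neither tissue did the P14 libraries overlap with the earlier ones. The SAN mean at P14 was 7.75 ± 2.68 CPM. It was 33.1 times the mean level of 3 reads, which a count of 0 allows, at E14.5 and 27.8 times that at P4. These ratios allow for counting error at the earlier stages alone, not for the spread at P14, and are no strict bounds. The fitted differences depend on the pseudocount and are no bounds either. They were 3.08 ± 0.40 in SAN for P14 against E14.5 (limma adjusted p = 8.27e-06) and against P4 (8.21e-05). In RA they were 2.39 ± 0.40 against E14.5 (limma adjusted p = 0.000143) and 2.33 ± 0.40 against P4 (0.0013), the latter lost with edgeR (0.0723) within a range of 0.000566 to 0.0723. SAN and RA did not differ detectably in Ptgs2 at P14 (0.47 ± 0.40, limma adjusted p = 0.659). Nearest to Ptgs2 in pattern were Gda (r = 0.96), Xdh (0.94) and Gal3st2 (0.94).

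**Figure D4:**
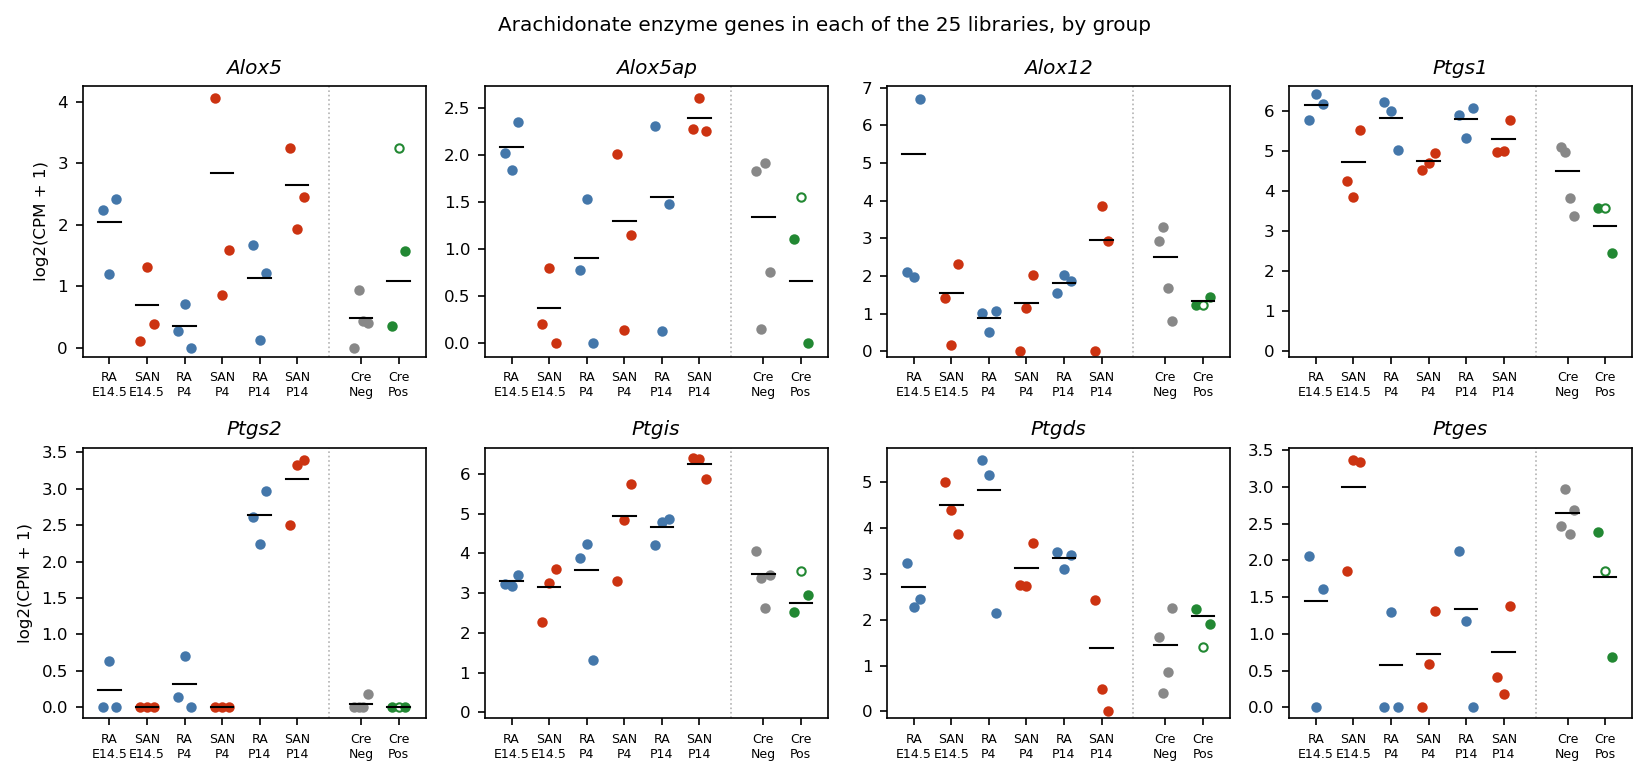
Level in log2(CPM + 1) of the 8 genes other than Alox8 in each library, by group, with SAN in red, RA in blue, CreNeg in grey, CrePos in green, group means in CPM as black bars and CrePos replicate 2 as an open point. Ptgs2 is near 0 in all groups but SAN P14 and RA P14 (3.74 to 9.52 CPM), Ptgis is highest in SAN P14 (58.02 to 84.1 CPM), and Alox12 is high in 1 RA E14.5 library (103.5 CPM).

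The terminal synthases went different ways as the SAN matured. Ptgis makes prostacyclin, a relaxant of vessels, and is known from smooth muscle, endothelium and fibroblasts. It stood at 3.83, 8.57 and 11.2 CPM in SAN at E14.5, at 8.81, 27.8 and 52.6 CPM at P4 and at 84.1, 81.8 and 58.02 CPM at P14. In RA it stood at 8.35, 8.11 and 10.1 CPM at E14.5, at 13.7, 17.7 and 1.51 CPM at P4 and at 17.7, 26.7 and 28.1 CPM at P14. The SAN P14 libraries were the highest of the 18. Ptgis rose in the SAN from E14.5 to P14 by 3.17 ± 0.61 on the log2 scale (limma adjusted p = 0.000583), from a mean of 7.88 ± 3.75 to 74.7 ± 14.5 CPM, and was called in all 15 alternatives. In RA the change was 1.33 ± 0.61 (limma adjusted p = 0.124; called by edgeR at 0.0467 and DESeq2 at 0.0104, range 0.0104 to 0.267), and the difference between the tissues did not pass (1.84 ± 0.87, limma adjusted p = 0.320).

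Over the 3 stages Ptgis differed between SAN and RA by 0.95 ± 0.35 (limma adjusted p = 0.0951). This passed in 4 of 27 alternatives, DESeq2 (adjusted p = 0.0296) and limma without RA P4 replicate 2 (0.0419), without SAN P4 replicate 1 (0.0229) or without the 3 libraries that stood apart (0.0191), within a range of 0.0191 to 0.177. Markers of stromal cells, like Ptgis, were higher at P14 than at E14.5. The summed level of 8 smooth muscle and pericyte markers was 724.8 to 851.2 CPM in SAN at E14.5 and 3199 to 3959 CPM at P14, against 417.8 to 646.6 and 858.6 to 1268 CPM in RA. That of 10 fibroblast markers was 2825 to 5530 and 18989 to 21993 CPM in SAN and 2411 to 2988 and 8579 to 10835 CPM in RA. At P4 the fibroblast sum was 7276, 16408 and 15646 CPM in RA replicates 1, 2 and 3, where Ptgis stood at 13.7, 17.7 and 1.51 CPM. In SAN replicates 1, 2 and 3 it was 7801, 15882 and 15814.5 CPM, where Ptgis stood at 8.81, 27.8 and 52.6 CPM. The smooth muscle and pericyte sum of these libraries was 1109, 547.5 and 621.7 CPM in RA and 707.0, 946.8 and 3514 CPM in SAN. All of these markers were detected in each group, and their part in the rise of Ptgis was not tested. Nearest to Ptgis were Lrrc32 (r = 0.93), Slc44a2 (0.93) and Adam23 (0.92).

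Ptgds encodes the lipocalin-type prostaglandin D synthase, which also carries small lipophilic molecules. It stood at 31.2, 20.04 and 13.7 CPM in SAN at E14.5, at 5.78, 5.71 and 11.8 CPM at P4 and at 4.42, 0.400 and 0 CPM at P14. In RA it stood at 8.46, 3.87 and 4.45 CPM at E14.5, at 43.8, 34.8 and 3.44 CPM at P4 and at 10.2, 7.57 and 9.60 CPM at P14. Thus the SAN libraries lay above the RA libraries at E14.5 and below them at P14. Ptgds fell in the SAN from E14.5 to P14, a difference of −3.45 ± 0.71 (limma adjusted p = 0.00103) that was called in all 15 alternatives, while in RA the change of 0.67 ± 0.71 was not called (0.528). The node myocyte marker sum given above was also lower in the SAN at P14 than at E14.5. At P4 it was not lower (4450 to 6721 CPM), while the Ptgds libraries already lay below those of E14.5 (−1.37 ± 0.71, limma adjusted p = 0.271). RA P4 had the highest Ptgds group mean (27.4 CPM) at a node marker sum of 88.1 to 119.9 CPM. The part of node myocytes in the fall of Ptgds was not tested. SAN E14.5 replicate 1, the highest SAN library in Ptgds, is the one that stood apart in Myl2, and the fall was called without it too. The difference between the tissues in this change was −4.13 ± 1.00 (limma adjusted p = 0.0298), where 2.27% of all genes tested were called (1.64% higher and 0.632% lower) and Ptgds was the only one of 8. It was lost in 12 of 21 alternatives, with adjusted p-values from 0.00987 to 0.147, among them edgeR (0.106), no filter on low values (limma, 0.0504) and 9 of the 12 settings that leave out 1 library (all but those without RA E14.5 replicate 1, SAN E14.5 replicate 3 and SAN P14 replicate 1). For the change from E14.5 to P4 0 of the 8 were called in limma (1.15% of all genes), 3 had an unadjusted p below 0.05 (Alox5, Alox5ap and Ptgds), DESeq2 called 1 and edgeR 0. There leaving out RA P4 replicate 3, the RA library at 3.44 CPM, brought Ptgds to −4.03 (limma adjusted p = 0.0181) from −2.98 ± 1.00 (0.217), within a range of 0.0181 to 0.607. At P14 Ptgds differed between SAN and RA by −2.36 ± 0.71 (limma adjusted p = 0.0621), which passed in 4 of 15 alternatives, among them limma without SAN P14 replicate 1 (0.0193, range 0.0193 to 0.228). For Ptgds the best correlations were with Arf5 (r = 0.87), Tnnc1 (0.86) and Synpo2l (0.85).

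Ptges, the membrane-bound prostaglandin E synthase that often acts with Ptgs2, was the other one to fall in the SAN. It stood at 2.60, 9.31 and 9.13 CPM at E14.5, at 0, 0.501 and 1.48 CPM at P4 and at 0.328, 0.133 and 1.60 CPM at P14. In RA it stood at 3.16, 0 and 2.05 CPM at E14.5, at 0, 1.47 and 0 CPM at P4 and at 3.36, 1.25 and 0 CPM at P14. The SAN libraries of E14.5 lay above those of P4 and P14. The SAN difference was −2.22 ± 0.63 for P4 (limma adjusted p = 0.0328) and −2.20 ± 0.63 for P14 (0.0138) against E14.5. Both calls were lost with edgeR (adjusted p = 0.266 and 0.208), DESeq2 (0.184 and 0.155) and a pseudocount of 0.25 (limma, 0.0917 and 0.0517), within ranges of 0.0127 to 0.266 and 0.00448 to 0.208. They were also lost in limma without SAN E14.5 replicate 2 (0.129 and 0.0625) or replicate 3 (0.112 and 0.0566). For P4 the call was lost without SAN P4 replicate 1 (limma, 0.125) or 2 (0.09) and without the 3 libraries that stood apart (0.0935), and for P14 without SAN P14 replicate 2 (0.0559). The closest genes to Ptges were Spocd1 (r = 0.80), Ebpl (0.75) and Hpse2 (0.75).

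Counted over the 9 genes, P14 against E14.5 in the SAN had 4 higher (Ptgs2, Ptgis, Alox5ap, Alox5) and 2 lower (Ptgds, Ptges) calls, where 24.3% of all genes were called (9.74% higher and 14.5% lower). The median of the 9 was 1.05 on the log2 scale and that of all genes −0.18. The RA comparison of these stages had 2 higher calls (Ptgs2 and Alox8) and 0 lower, where 22.7% of all genes were called (5.99% higher and 16.7% lower), with medians of −0.12 and −0.37. Of the single steps, P4 against E14.5 in SAN had 1 higher (Alox8) and 1 lower (Ptges) call (8.24% of all genes, 3.85% higher and 4.39% lower). In RA this step had 0 calls in limma (6.79%), 4 genes with an unadjusted p below 0.05 (Alox5, Alox5ap, Alox12 and Ptgds), 1 call by DESeq2 and 0 by edgeR. P14 against P4 had 1 higher call, Ptgs2, in SAN (5.59%, with 2.68% higher and 2.91% lower) and the same gene in RA (6.76%, with 1.34% higher and 5.42% lower). These comparisons share libraries with each other and with those of SAN against RA, so no overlap between them is given.

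**Figure D5:**
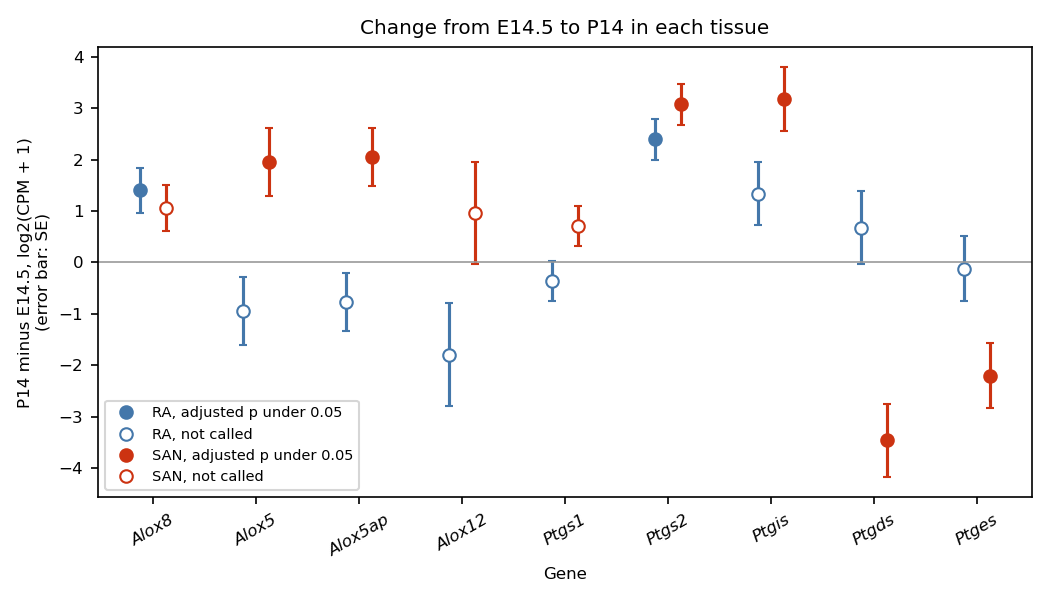
Change from E14.5 to P14 in log2(CPM + 1) for the 9 genes in SAN (red) and RA (blue), with the SE of the fit as error bars and 3 libraries per group. Filled points passed a limma adjusted p of 0.05. In SAN, Ptgs2 (3.08) and Ptgis (3.17) rose most and Ptgds (−3.45) fell most; in RA, Ptgs2 (2.39) and Alox8 (1.40) were called.

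The surrounding pathway was followed through a list of 65 other genes, of which 46 were in the table and 39 were tested. Over the 3 stages 4 were higher and 4 lower in SAN than in RA, with a median of 0.03 against −0.01 for all genes, of which 6.11% were called higher and 5.36% lower. Receptors led the higher ones. Tbxa2r, the thromboxane receptor, ranged from 5.44 to 27.6 CPM (median 11.2) in SAN and from 0 to 5.70 CPM (median 1.84) in RA, a difference of 2.07 ± 0.35 (limma adjusted p = 0.00026). Ptgfr, the receptor for prostaglandin F, ranged from 2.71 to 207.9 CPM (median 21.6) in SAN and from 0.184 to 49.5 CPM (median 9.56) in RA, a difference of 1.65 ± 0.26 (limma adjusted p = 0.000119). Cmklr1, a receptor for chemerin and resolvin, was higher by 1.86 ± 0.32, and Pla2g5, a secreted phospholipase, by 1.36 ± 0.36. Ptgfrn, a membrane partner of Ptgfr, was lower by 0.74 in SAN (−0.74 ± 0.12). The other lower calls, Lta4h (−0.67), Pla2g4e (−1.07) and Cysltr1 (−1.29), were each lost in 10 or more of 27 alternatives, while the first 5 genes were called in all of them. No other prostanoid synthase of the 7 tested was called.

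With age, more of these genes rose than fell in the SAN. From E14.5 to P14, 14 of 39 rose and 3 fell, with a median of 0.47 against −0.18 for all genes, of which 9.74% were called higher and 14.5% lower. Ptgfr ranged from 2.71 to 9.43 CPM in SAN at E14.5 and from 103.0 to 207.9 CPM at P14, a rise of 4.56 ± 0.46 (limma adjusted p = 2.78e-07). Tbxas1, the thromboxane synthase, ranged from 0.506 to 1.11 CPM at E14.5 and from 6.80 to 14.24 CPM at P14, a rise of 2.60 ± 0.48. Abcc4, which exports prostaglandins, rose by 2.67 ± 0.46, and Hpgd, which inactivates them, by 1.94 ± 0.46. Cmklr1 rose by 3.04 ± 0.56, Ephx1, an epoxide hydrolase, by 3.19 ± 0.59, Cysltr1, a leukotriene receptor, by 2.55 ± 0.66 and Cyp2j9, a cytochrome P450 gene, by 2.21 ± 0.48. Among the falling genes Cbr1, a carbonyl reductase, went from 26.8 to 53.9 CPM at E14.5 to 6.24 to 13.7 CPM at P14 (−1.91 ± 0.36). These 9 calls held in all 15 alternatives. Hpgds (2.05), the other prostaglandin D synthase, Ptgir (2.22), the prostacyclin receptor, Pla2g16 (0.75), Pnpla8 (0.62), Lta4h (−1.09) and Ptges3 (−0.87) were called in limma and lost in 2 to 9 of the 15.

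In RA over the same interval 8 of the 39 rose and 5 fell, with a median of 0.15 against −0.37 for all genes, of which 5.99% were called higher and 16.7% lower. Ptgfr ranged from 0.184 to 0.535 CPM at E14.5 and from 46.4 to 49.5 CPM at P14, a rise of 5.19 ± 0.46 (limma adjusted p = 4.91e-08). Pla2g5 rose by 3.21 ± 0.62, Abcc4 by 2.00 ± 0.46, Ephx2 by 1.74 ± 0.34 and Ptgr2, a prostaglandin reductase, by 1.13 ± 0.22, while Lta4h, which makes a chemotactic leukotriene, fell (−1.65 ± 0.33). These 6 calls held in all 15 alternatives. Ephx1 (1.78), Pnpla8 (0.85), Hpgd (−1.37), Akr1b8 (−1.83) and Pla2g4c (−1.85) were lost in 1 to 8. The macrophage, smooth muscle and fibroblast marker sums given above were higher at P14 than at E14.5 in both tissues, while some of these genes rose and others fell. The part of those cells in either was not tested.

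In the E12.5 set Isl1, the targeted gene, did not separate the labels. It stood at 67.4, 88.5, 47.8 and 83.2 CPM in CreNeg and at 71.7 and 53.9 CPM in the libraries labelled CrePos 1 and 3. Counts over the whole gene may include exons outside the deleted part, so this does not check the deletion. Hcn4 was lower in both of these libraries (107.7 and 81.1 CPM) than in CreNeg (213.96 to 246.6 CPM), and the summed node markers were 744.6 to 872.6 CPM against 1721 to 2065 CPM. The library labelled CrePos 2 had 1032 CPM of Myl2 and 168.05 CPM of node markers, is marked as an outlier in its title and was left out of the main test.

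Of the 9 genes, 7 were tested there and 0 were called, where 2.00% of all genes were. At an unadjusted p below 0.05 in limma 2 passed, Alox8 and Ptgs1, while DESeq2 called 1 (Alox8) and edgeR 0. Alox8 stood at 3.35, 5.07, 3.84 and 11.8 CPM in CreNeg and at 29.8 and 13.5 CPM in CrePos 1 and 3, which lie above all CreNeg libraries. The library left out held 0.275 CPM. The difference was 1.73 ± 0.49 (limma adjusted p = 0.0909), where the median of all genes was −0.42. DESeq2 (adjusted p = 0.00303) and limma without CreNeg replicate 4 (0.0381) were among the settings that called it, and limma with all 3 CrePos libraries gave 0.38 (0.784), within a range of 0.00303 to 0.784. In CrePos 1 and 3 the node marker sum was thus below, and Alox8 above, the CreNeg range. Gucy2e stood at 2.89, 0.858, 0.919 and 4.37 CPM in CreNeg and at 3.84 and 1.03 CPM in CrePos 1 and 3, and these groups overlapped.

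Ptgs1 stood at 33.5, 30.3, 13.3 and 9.39 CPM in CreNeg and at 10.9 and 4.50 CPM in CrePos 1 and 3, a difference of −1.31 ± 0.49 (limma adjusted p = 0.179, range over the alternatives 0.0383 to 0.971). Ptges stood at 4.55, 6.85, 4.12 and 5.44 CPM against 4.24 and 0.609 CPM, Ptgis at 15.8, 9.45, 5.18 and 9.98 CPM against 4.73 and 6.76 CPM and Ptgds at 2.09, 0.327, 0.813 and 3.76 CPM against 3.70 and 2.75 CPM. Alox5ap stood at 2.55, 0.109, 2.78 and 0.679 CPM against 1.15 and 0 CPM. These groups overlapped. Alox5 (at most 1.96 CPM in these 6 libraries) and Ptgs2 (at most 0.141 CPM) were below the filter. Of the other pathway genes 0 of 35 were called in limma and 0 by edgeR, DESeq2 called 1, and 6 had an unadjusted p below 0.05 in limma.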

How the data were processed

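RNA was amplified from laser-captured tissue, per the labels' protocols, and reads were aligned with TopHat2 2.0.6 to mm8 and processed with edgeR, per the submitters' processing notes. The table the authors deposited holds a normalised signal per gene, in which all values are whole reads (within 0.1) times 1 factor per library. These signal values were divided by 24.3374 in all libraries to give a CPM-like scale, on which library totals differ. Main tests used limma 3.58.1 (R 4.3.3) with a mean-variance trend on log2(CPM + 1). A gene was tested if 3 or more of the 18 SAN and RA libraries reached 1 CPM (17568 genes, 6 group means), or 2 or more in the E12.5 fit (14595 genes), with Benjamini-Hochberg adjustment and a threshold of 0.05. CrePos replicate 2 was left out of the E12.5 fit. Fits were tested on simulated data. Alternatives were other pseudocounts, no filter, equal upper quartiles, scaling on 15 sarcomere genes, edgeR 4.0.16 and DESeq2 1.42.0 on recovered reads, a replicate block and leaving out each library. Leaving out the 3 libraries that stood apart was chosen after seeing the data. Replicates differed by more than sampling noise (chi-square over degrees of freedom at least 8.82). Python 3.11.15 drew the rest.

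Members and gene lists were chosen with earlier results of these data known. All 10 members are named. Of the other pathway lists, the text names the 2 genes in each direction with the largest difference among those called with a higher group mean of at least 5 CPM, in 4 comparisons. Of all symbols, 87.5% were found in the later annotation used for neighbours.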

Additional observations from a re-analysis of the deposited data

Results flagged for a closer look

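Alox5 stood at 8.52 CPM in the library labelled CrePos replicate 2, which the main test leaves out because its title marks it as an outlier, against at most 0.920 CPM in the 4 CreNeg libraries. The macrophage and leukocyte marker sum of that library was 145.5 CPM against 58.5 to 107.4 CPM in CreNeg, and its mast cell marker sum was 4.04 CPM.

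Ptgs2 stood at 0.141 CPM in CreNeg replicate 4 and at 0 in the other 3 CreNeg libraries, so that 1 library lay away from the rest. The limit for such a gap is set so that chance marks about 1 in 20 groups of normally distributed values, which 3 values of 0 are not.

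The change of Ptgds from E14.5 to P14 differed between the tissues by −4.13 on the log2 scale in limma. The SAN mean went from 21.7 to 1.61 CPM and the RA mean from 5.59 to 9.13 CPM.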

How the results depend on the processing

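No called difference changed sign under any alternative. Some that were not called or not tested did, such as the difference between tissues in the change of Alox8 to P14 (−0.35, but 0.37 with a pseudocount of 4 and 0.27 without SAN P14 replicate 2). Of the 9 genes, 15 calls were made over the comparisons and 6 held under all alternatives, and of 34 named calls of other pathway genes 20 did. The counts of these genes called changed as follows. For SAN against RA over the 3 stages the count of 1 became 2 with DESeq2 and without the 3 libraries that stood apart. At E14.5 1 became 2 with sarcomere scaling, 0 with edgeR and 0 without the 3 libraries. At P4 0 became 1 with DESeq2 and 1 without the 3 libraries. At P14 0 became 1 with a pseudocount of 0.25, with equal upper quartiles and with the replicate block. For SAN, P4 against E14.5, 2 became 1 with a pseudocount of 0.25 or edgeR and 0 without the 3 libraries. P14 against P4 in SAN went from 1 to 2 with a pseudocount of 0.25. In RA, P4 against E14.5 went from 0 to 1 with DESeq2, P14 against P4 from 1 to 0 with edgeR, and P14 against E14.5 from 2 to 1 with a pseudocount of 4 and without the 3 libraries. For the difference between tissues, the change to P4 went from 0 to 1 with DESeq2. The change to P14 went from 1 to 2 with a pseudocount of 4, 3 with sarcomere scaling and 0 with no filter, edgeR or without the 3 libraries. CrePos against CreNeg went from 0 to 1 with DESeq2 and 2 with the replicate block, and for other pathway genes from 0 to 1 and 3. The cause of these changes was not tested.

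Leaving out 1 library gave 1 to 2 calls for SAN against RA over the stages, 0 to 1 at each single stage, 0 to 2 for SAN, P4 against E14.5, 1 to 2 for SAN, P14 against P4, 0 to 1 for RA, P4 against E14.5, 1 to 2 for RA, P14 against E14.5 and 0 to 1 for both differences between tissues and for CrePos. For other pathway genes it gave 5 to 9 calls over the stages (8 in all), 8 to 11 for RA, P14 against E14.5 (13 in all) and 0 to 1 for CrePos. Without 1 CrePos library the other is assumed to vary like CreNeg.

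The replicate numbers did not pair the SAN and RA libraries: 3 of 9 pairs correlated best with their own number (r from −0.0915 to 0.119). CreNeg and CrePos share 2 numbers, with r of −0.0015 and −0.0037. There the replicate block moved the calls over all genes from 292 to 980 and called Alox8 (2.20, limma adjusted p = 0.0168) and Ptgs1 (−1.46, 0.0383). For SAN against RA at P14 the replicate block took the count of these genes from 0 to 1, and it otherwise kept their counts within 1.5 times. Sarcomere scaling moved the median difference of all genes by −0.43 for RA, P14 against E14.5 (9% of calls higher, 26.4% in the main test), −0.27 for RA, P4 against E14.5 (20.7% and 47.6%), −0.16 for RA, P14 against P4 (9% and 19.9%), −0.25 for SAN against RA at E14.5 (20.9% and 42%), 0.15 at P14 (81.1% and 70.6%), 0.19 and 0.40 for the differences between tissues to P4 (69.8% and 53%) and P14 (93% and 72.2%) and −0.17 for CrePos (21.8% and 33.9%). Equal upper quartiles moved it by 0.39 for CrePos (69.7%), 0.26 for RA, P14 against E14.5 (48%), 0.24 for RA, P14 against P4 (58.7%), −0.16 for the difference to P14 (56.2%), −0.14 for SAN against RA at P14 (55.6%) and 0.11 for SAN, P14 against E14.5 (48.9% and 40.2%). Alox5, Alox5ap, Ptgs2 and Ptges rest on few reads, which limits their precision.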
